A study of Coturnix japonica with 29 samples.

Results

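Red cell gene expression was compared between 2 groups of adult female Japanese quail (Coturnix japonica) that differed only in the male each had met. Every one of these females had been injected with saline. In M_LPS the female spent 3 h with a male injected with lipopolysaccharide (LPS), a bacterial cell wall molecule that brings on sickness without an infection. In M_SAL the female spent the same 3 h with a saline-injected male. The libraries were chosen by their treatment labels, which gave 10 libraries for M_LPS and 9 for M_SAL, 19 of the 29 in the series. The remaining 10 libraries, F_LPS, came from females that were themselves injected with LPS and met saline-injected males, and they serve here as a reference. Blood was drawn from the brachial vein when the meeting ended, and RNA was sequenced from the red cell portion. The dose of LPS, the birds' ages and their behaviour were not analysed here.

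Bird red cells keep their nucleus and go on transcribing genes in the circulation. In birds and mammals they carry haemoglobin, and in birds they also express immune receptors and can respond to microbial molecules. LPS is sensed by Toll-like receptor 4 on the cells it meets, which switches on cytokine and other defence genes. The exposed females had received no LPS themselves. The comparison of M_LPS with M_SAL asks whether time spent with an LPS-injected male was followed by a measurable difference in the female's red cell RNA.

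Library totals ran from 8898747 to 12932244 reads in M_LPS and from 9399305 to 12020004 reads in M_SAL. Of 21561 Ensembl gene identifiers in the table, 9918 passed a filter on low counts, held 99.9% of the reads and were tested. The sources used here pair 0 of the identifiers with a gene symbol, so genes are described by level, direction and library. Only 4 identifiers are given in full, and immune, stress and red cell marker genes could not be looked up, including for a check of the tissue. For the same reason white blood cells and red cells could not be told apart, and in any gene fewer cells of a type and less RNA per cell cannot be told apart. Some libraries stood apart from their groups, M_SAL replicates 1 and 3 on one side and M_SAL replicate 6 with M_LPS replicates 6 and 7 on another. The groups follow the labels throughout. For the results these libraries moved most, the values without them are given as well.

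Exposure to an LPS-injected male left no gene past the test. Of 9918 genes 0 were called at an adjusted p below 0.05 (0% of those tested; edgeR quasi-likelihood test with Benjamini-Hochberg adjustment), with a lowest adjusted p of 0.427. Before adjustment 427 genes (4.31%) had a p below 0.05, of which 130 were higher in M_LPS (1.31%) and 297 lower (2.99%). In the same fit, F_LPS had 229 called genes against M_SAL (2.31%) and 663 against M_LPS (6.68%), with 11.7% and 17.9% of genes at an unadjusted p below 0.05. F_LPS differed from M_SAL in the female's injection alone. From M_LPS it differed in the injection of the female and in that of the male, which cannot be told apart there. Both F_LPS comparisons share libraries with each other and with the exposure comparison. The first of them also depended on M_SAL replicates 1 and 3. Without these libraries 455 of the 10135 genes then tested were called against M_SAL and 747 against M_LPS. With M_SAL replicate 6 and both M_LPS replicates 6 and 7 left out instead, these counts were 179 and 454 of 9817 genes. In no gene did every M_LPS library lie above, or every M_SAL library lie above, all libraries of the other group (0 genes, 0%). Such separation was seen in 15 genes (0.151%) for F_LPS against M_SAL and in 127 genes (1.28%) for F_LPS against M_LPS. Among the same 9918 genes, without M_SAL replicates 1 and 3, it was seen in 142 for F_LPS against M_SAL. For M_LPS against M_SAL it was still seen in 0, and in 1 when the other 3 libraries were left out. Groups of fewer libraries separate more easily, so these counts do not compare directly with those from all libraries.

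**Figure D1:**
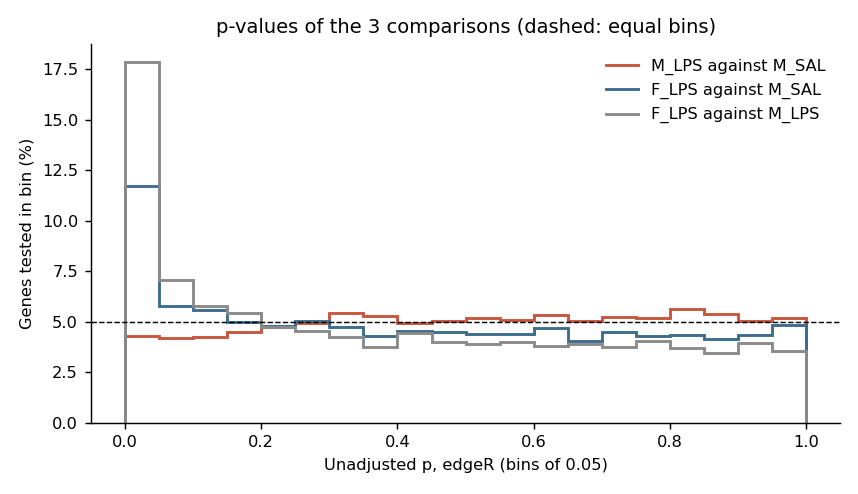
Share of the 9918 tested genes in each bin of unadjusted p (edgeR, bins 0.05 wide) for the 3 comparisons, with a dashed line at equal bins. The first bin holds 4.31% of genes for M_LPS against M_SAL, 11.7% for F_LPS against M_SAL and 17.9% for F_LPS against M_LPS.

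DESeq2 gave another count, 31 genes at an adjusted p below 0.05 (0.313% of the genes tested), 1 higher (0.0101%) and 30 lower (0.302%) in M_LPS. It gave no adjusted p for 2308 genes. limma voom called 0 genes, with 316 at an unadjusted p below 0.05. DESeq2 called 0 genes without M_SAL replicates 1 and 3, with 299 at an unadjusted p below 0.05. With M_LPS and M_SAL alone in its fit it called 1 gene, which was lower in M_LPS.

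The estimated differences were small for most genes. The median log2 fold change of M_LPS over M_SAL was -0.01 over all genes tested, with 4779 genes above 0 and 5139 below. The median size of the log2 fold change, regardless of sign, was 0.13, and 95% of genes lay within 0.77. Differences over 2-fold were estimated for 281 genes, 122 higher and 159 lower, and 170 of these were at an unadjusted p below 0.05, 45 higher and 125 lower.

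A gene that misses a test is not shown to be alike in both groups, so the 95% intervals of the fold changes were read as well. The interval lay wholly within 2-fold in either direction for 7532 genes (75.9%) and within 1.5-fold for 4828 genes (48.7%). For the remaining genes a change of 2-fold or more in at least 1 direction lay inside the interval. The precision followed abundance. The genes were divided by mean level into 4 abundance classes of equal size, in CPM (a gene's reads per library, after scaling each library to the same total). In the most abundant class, with a median of 136 CPM, 96.9% of intervals lay within 2-fold and 88.6% within 1.5-fold. In the next class, at a median of 36.1 CPM, these shares were 94.2% and 73.7%. In the class below it, at 9.20 CPM, they were 77.9% and 30.7%. In the least abundant class, at 1.88 CPM, they were 34.8% and 1.77%. On the log2 scale intervals had a median half-width of 0.26, 0.32, 0.53 and 0.87 from the most to the least abundant class. In the least abundant class most intervals thus reached 2-fold, so that a change of that size was not excluded for most of its genes.

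The most abundant single genes differed little in level. The 10 most abundant genes of the table had mean levels over the 19 libraries of 3996 CPM or more, and the highest of them stood at 127345 CPM. Their log2 fold changes lay between -0.15 and 0.18. All 10 intervals lay within 1.5-fold, and none of the 10 was at an unadjusted p below 0.05. Together they took 21.8% to 33.3% of the reads of each M_LPS library, with a median of 24.5%, and 18.3% to 30.3% in M_SAL, with a median of 24.0%. The groups overlapped over most of this range, and the means differed by 1.48 percentage points (exact permutation test over 92378 regroupings, two-sided, p = 0.373, adjusted p = 0.559 over 6 measures). The difference was 0.621 points without M_LPS replicate 7, 0.763 without M_SAL replicate 3, 2.27 without M_SAL replicate 9, and 0.563 with M_SAL replicate 6 and both M_LPS replicates 6 and 7 left out.

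**Figure D2:**
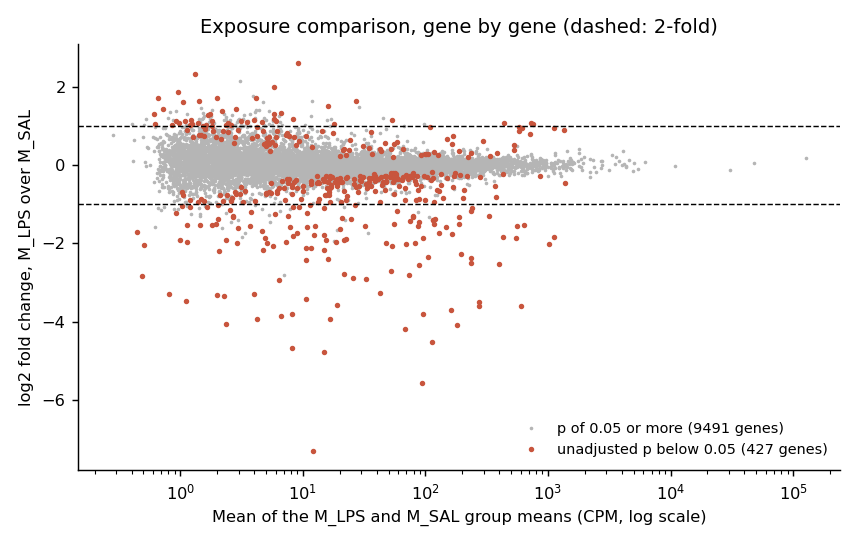
Log2 fold change of M_LPS over M_SAL against the mean of the 2 group means (CPM, log scale) for the 9918 genes tested. The dashed lines mark 2-fold; the 427 genes at an unadjusted p below 0.05 are in red, and 125 of them lie below the lower line and 45 above the upper one.

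The 297 genes lower at an unadjusted p were split at 2-fold into a strongly and a weakly differing class. The strongly differing class rested on M_SAL replicates 1 and 3, the weakly differing class less so. Of the 125 genes lower by over 2-fold, 110 had both of these libraries above the other 7 M_SAL libraries. Over all genes tested this was so for 9.73%. The median log2 fold change of the 125 genes was -1.88 with all libraries and 0.02 without these 2 libraries. Without the 2, 60 of the 125 genes kept their direction, and 9 were at an unadjusted p below 0.05 in either direction. Of the 172 genes lower by less than 2-fold, 52 (30.2%) had both libraries above the others. Their median was -0.47 with all libraries and -0.31 without the 2. Of the 172 genes, 162 then kept their direction, and 60 were at an unadjusted p below 0.05 in either direction. These genes were chosen for being higher in M_SAL, so the values describe where the difference lay and are no test.

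The library in which a gene peaked was read for the same genes. M_SAL replicate 1 held the highest value of the 19 libraries in 122 of the 297 lower genes (41.1%) and M_SAL replicate 3 in 99 (33.3%). Over all genes tested they held the highest value in 8.76% and 11.4%. The lower genes were chosen for high M_SAL values, which favours a peak in some M_SAL library. The shares over all genes include genes that peak in M_LPS, so the excess is partly fixed by the choice and is no separate support. M_SAL replicate 8, which held the highest value in 12.01% of all genes, held it in 6.73% of the lower ones. Among the 130 higher genes the peaks were spread more widely over the M_LPS libraries. M_LPS replicate 7 held the highest value in 29 of them (22.3%) and M_LPS replicate 6 in 28 (21.5%), against 9.50% and 5.29% of all genes. Here too the choice favoured a peak in an M_LPS library, so the shares over all genes are no like baseline. Replicate 7 also held the most peaks of the M_LPS libraries over all genes. The median log2 fold change of the 130 higher genes was 0.82. Without M_SAL replicates 1 and 3 it was 0.71. With M_LPS replicates 6 and 7 and M_SAL replicate 6 left out it was 0.65 over the 123 genes tested there.

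The genes called by DESeq2 showed both classes. Of its 31 calls, 26 were lower in M_LPS by over 2-fold, with a median edgeR log2 fold change of -3.53. The median level of these 26 genes was 414 CPM in M_SAL replicate 1 and 303 CPM in M_SAL replicate 3. In the other 7 M_SAL libraries it lay between 4.52 and 18.3 CPM, and in the 10 M_LPS libraries between 4.19 and 19.3 CPM. Outside these 2 libraries the groups overlapped throughout. In the injected females the same median ran from 29.7 CPM in F_LPS replicate 1 to 828.5 CPM in F_LPS replicate 8, so M_SAL replicates 1 and 3 lay inside the F_LPS range. The 26 genes took 1.91% and 2.20% of the reads of M_SAL replicates 1 and 3, and at most 0.123% in any other M_SAL or M_LPS library. Without M_SAL replicates 1 and 3 their median log2 fold change was 0.01. Of the 26 genes, 12 then kept their direction, and 2 were at an unadjusted edgeR p below 0.05 in either direction.

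**Figure D3:**
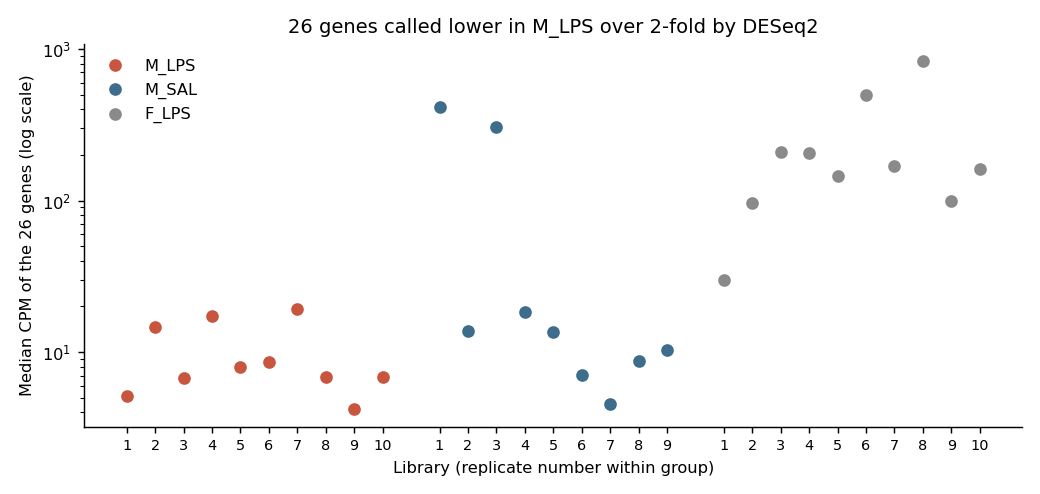
Median CPM (log scale) over the 26 genes that DESeq2 called lower in M_LPS by over 2-fold, in each library of the 3 groups. M_SAL replicates 1 and 3, at 414 and 303 CPM, stand among the F_LPS libraries, and the other 7 M_SAL libraries lie between 4.52 and 18.3 CPM beside the M_LPS libraries.

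The other 5 DESeq2 calls differed by less than 2-fold, and in 1 of them both M_SAL replicates 1 and 3 lay above the other M_SAL libraries. Their edgeR log2 fold changes lay between -0.58 and 0.41, and all 5 were at an unadjusted p below 0.05 both without M_SAL replicates 1 and 3 and with M_LPS replicates 6 and 7 and M_SAL replicate 6 left out. The edgeR fit was run 22 times: with all libraries, without each M_LPS or M_SAL library in turn, and without each of these sets. Of the 9918 genes tested, 427 (4.31%) were at an unadjusted p below 0.05 with all libraries. In all 22 fits 60 of the 427 were so, in the same direction every time. Evenly spread p-values would put a share of 0.05 of all genes below that p, more than the 4.31% seen. The fits share most of their libraries and are no independent repeats. Of the 60 genes, 36 were higher and 24 were lower in M_LPS. The median log2 fold change was 0.83 in the higher genes, at a median of 7.25 CPM, and -0.55 in the lower genes, at a median of 49.2 CPM. None of them passed the adjusted edgeR test with all libraries in the fit, though DESeq2 called some of them.

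The 4 identifiers given here are those with the smallest p in each direction among the 7319 genes that averaged 5 CPM or more in the group where they were higher. All 4 belong to the 60 genes just described. They were chosen for their p, so their separation is a description.

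ENSCJPG00005020895 had the smallest p of all. Its level was 56.0 CPM at the lowest, 69.4 at the median and 83.6 at the highest in M_LPS, and 63.2, 95.5 and 125 CPM in M_SAL. Of the M_SAL libraries 8 of 9 lay above every M_LPS library, and M_SAL replicate 4, at 63.2 CPM, was the exception. M_LPS averaged 69.4 ± 6.87 CPM (SD, n = 10) and M_SAL 96.7 ± 18.9 CPM (SD, n = 9). The log2 fold change was -0.48 (SE 0.10, 95% interval -0.68 to -0.27), with an unadjusted p of 4.5e-05 and an adjusted p of 0.427 by edgeR. Without M_SAL replicate 4 it was -0.54 and passed the threshold (edgeR adjusted p = 0.0196), the 1 gene called when a single library was left out. Replicate 4 is the exception named above, and leaving out a library that runs against the difference favours a smaller p. DESeq2 also called the gene (adjusted p = 0.00687). In the other 30 of 32 alternatives it did not pass, with a lowest adjusted p of 0.0888 by DESeq2 with M_LPS and M_SAL alone. In F_LPS its level ran from 62.7 to 94.5 CPM with a median of 76.8, and the log2 fold change of F_LPS over M_SAL was -0.32 (SE 0.10, edgeR adjusted p = 0.0938). The gene was picked for high values in these same M_SAL libraries, so a low value of F_LPS over M_SAL is favoured by the choice.

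ENSCJPG00005015296 was the other lower gene. In M_LPS it stood at 31.3 CPM at the lowest, 57.7 at the median and 81.8 at the highest, and in M_SAL at 59.2, 85.8 and 95.1 CPM. In 6 of the 10 M_LPS libraries it lay below every M_SAL library, and in 5 of the 9 M_SAL libraries above every M_LPS library. The log2 fold change was -0.58 (SE 0.14, 95% interval -0.87 to -0.29), with an edgeR adjusted p of 0.427 and a DESeq2 adjusted p of 0.0327. F_LPS libraries ran from 75.9 to 103 CPM with a median of 94.1, beside the M_SAL values. Against M_SAL the log2 fold change of F_LPS was 0.17 (SE 0.14, edgeR adjusted p = 0.742), and against M_LPS it was 0.76 (SE 0.14, edgeR adjusted p = 4.9e-04). M_LPS averaged 54.3 ± 16.9 CPM, M_SAL 81.2 ± 11.9 CPM and F_LPS 91.7 ± 10.8 CPM (mean ± SD over 10, 9 and 10 libraries). The exposed females had the lowest mean of the 3 groups. The gene was picked for low values in M_LPS, and the comparison of F_LPS with M_LPS uses the same M_LPS libraries. Its small adjusted p is therefore favoured by the choice and is no separate support.

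ENSCJPG00005007537 led the higher genes. Its level was 64.5 CPM at the lowest, 78.3 at the median and 85.1 at the highest in M_LPS, and 42.9, 58.2 and 68.6 CPM in M_SAL. In 7 of the 10 M_LPS libraries it lay above every M_SAL library, and the other 3 overlapped with the upper M_SAL libraries. The log2 fold change was 0.41 (SE 0.10, 95% interval 0.22 to 0.60), or 1.33-fold, with an edgeR adjusted p of 0.427. DESeq2 called it (adjusted p = 0.0165), the 1 higher gene in its list. F_LPS libraries lay between 54.4 and 82.4 CPM with a median of 68.1, across both other groups.

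ENSCJPG00005016335 was the second higher gene. It ran from 9.64 to 29.4 CPM in M_LPS, with a median of 15.7, and from 4.77 to 15.6 CPM in M_SAL, with a median of 10.9. In 5 of the 10 M_LPS libraries it lay above every M_SAL library. The log2 fold change was 0.86 (SE 0.24, 95% interval 0.36 to 1.35), or 1.81-fold, with an edgeR adjusted p of 0.487 and a DESeq2 adjusted p of 0.0807. F_LPS libraries ran from 8.005 to 22.7 CPM with a median of 12.9, and neither F_LPS comparison passed the test (edgeR adjusted p = 0.417 against M_SAL and 0.457 against M_LPS).

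**Figure D4:**
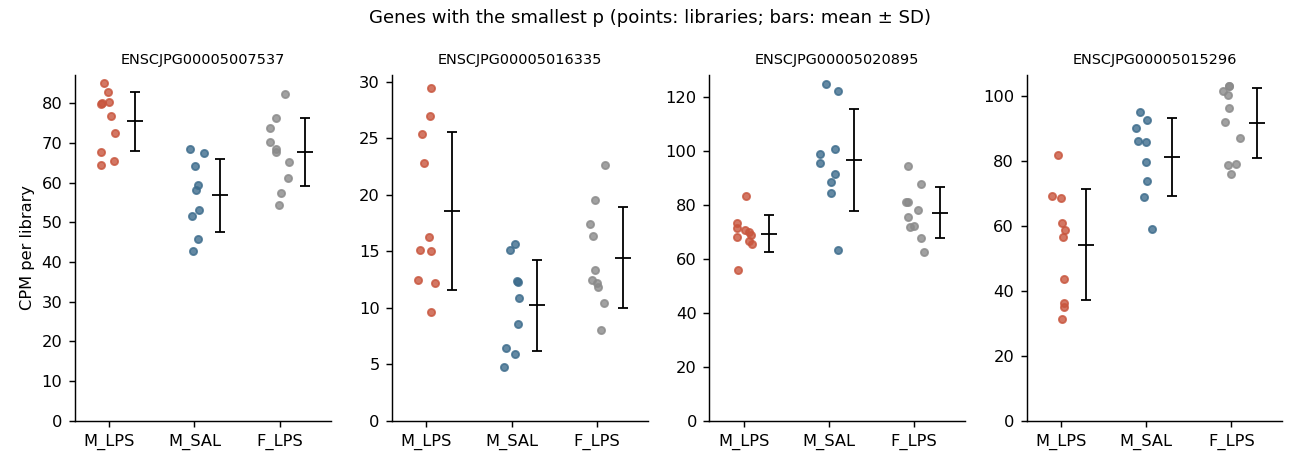
CPM per library of the 4 identifiers in M_LPS, M_SAL and F_LPS, with the mean and SD of each group beside the points. The M_LPS and M_SAL points overlap in each gene, and in ENSCJPG00005020895 a single M_SAL library, at 63.2 CPM, lies among the M_LPS points.

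At the level of whole libraries the groups overlapped as well. On principal components of log2 CPM computed from these 19 libraries, PC1 carried 19.8% of the variance and PC2 12.01%. PC1 scores ran from -56.8 to 13.6 in M_LPS and from -41.98 to 71.95 in M_SAL, and the medians were 0.62 and 0.95. M_SAL replicates 1 and 3, at 60.9 and 71.95, lay apart at the upper end, and M_LPS replicates 6 and 7 with M_SAL replicate 6, at -38.6, -56.8 and -41.98, at the lower end. The group means differed by -16.8 on PC1 (exact permutation test, two-sided, p = 0.253, adjusted p = 0.559) and by -1.59 on PC2 (p = 0.899, adjusted p = 0.899). With libraries left out, the components were computed again from the libraries kept. On these axes the PC1 difference was -6.13 without M_SAL replicates 1 and 3, -10.4 without replicate 1 alone and -10.3 without replicate 3 alone. The axes are not that of the 19 libraries, so these values do not compare directly with -16.8. Library totals (adjusted p = 0.587) and the number of genes detected after thinning to 8898747 reads (adjusted p = 0.559) did not pass either. Detected genes ran from 11910 to 13890 in M_LPS and from 11981 to 13405 in M_SAL.

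**Figure D5:**
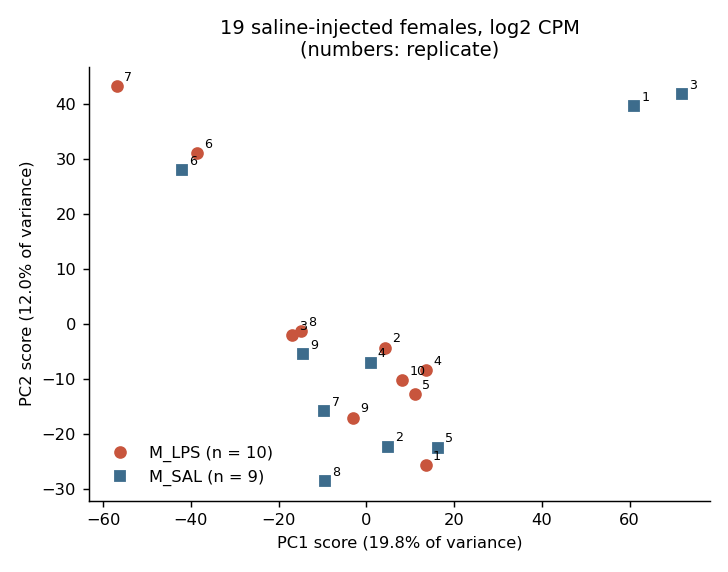
Scores of the 19 libraries of saline-injected females on PC1 (19.8% of variance) and PC2 (12.01%) of log2 CPM, numbered by replicate. M_SAL replicates 1 and 3 lie apart at the upper right, M_LPS replicates 6 and 7 and M_SAL replicate 6 at the upper left, and the other 14 libraries of both groups are mixed.

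The spread among birds of a group did not differ past the test between M_LPS and M_SAL. The distance of each library from the mean of the other libraries of its group (root mean square over the tested genes, log2 CPM) averaged 0.69 ± 0.09 over M_LPS (SD, n = 10) and 0.77 ± 0.12 over M_SAL (SD, n = 9). The difference was -0.08 (exact permutation test with distances taken again in every regrouping, two-sided, p = 0.216, adjusted p = 0.559). It was -0.015 without M_SAL replicates 1 and 3, -0.049 without M_SAL replicate 3 alone, and -0.112 with M_SAL replicate 6 and both M_LPS replicates 6 and 7 left out. Distances from a mean of fewer libraries run larger, which favours a negative difference where M_SAL is the smaller group. The -0.015 was not corrected for this. Gene by gene, the SD of log2 CPM had a median of 0.41 in M_LPS and 0.47 in M_SAL. It was over 2 times as large in M_SAL for 686 genes and over 2 times as large in M_LPS for 242. Without M_SAL replicates 1 and 3 the medians were 0.41 and 0.42, and these counts were 373 and 564. With M_SAL replicate 6 and both M_LPS replicates 6 and 7 left out, the medians were 0.39 and 0.47, and the counts were 1284 and 242. The counts thus changed order without M_SAL replicates 1 and 3, where the M_SAL SD rested on 7 libraries and the medians were nearly equal. Both kept their order without the other set of libraries. That set held M_LPS replicates 6 and 7, the farthest libraries of their group, while M_SAL replicates 1 and 3 stayed in. A lower spread in M_LPS was thus favoured by the choice.

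The genes that varied most among the 19 birds varied together in 2 sets, each highest in a few libraries. Of the 500 most variable genes, clustered without group labels, 176 formed a set of mostly scarce genes, 141 of them in the least abundant class, and 73 formed a second set. In log2 CPM the scarce set averaged 1.46 ± 1.49 over the 10 M_LPS libraries and 0.83 ± 1.32 over the 9 M_SAL libraries (mean ± SD). M_LPS replicate 7 (4.31), M_SAL replicate 6 (3.68) and M_LPS replicate 6 (3.62) were its highest libraries, and the next stood at 1.99. It took 0.345% to 0.495% of the reads in these 3 libraries and at most 0.106% in the others. The difference of M_LPS from M_SAL was 0.63 with all libraries and 0.36 without these 3. Over the F_LPS libraries the set averaged -0.19, with values from -1.32 to 1.19. Of its 176 genes 4 were at an unadjusted p below 0.05, all higher in M_LPS, where 1.31% of all tested genes were higher at that threshold.

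The second set averaged 2.13 ± 0.61 over M_LPS and 3.03 ± 2.12 over M_SAL (mean ± SD, same n), and 5.45 over F_LPS. M_SAL replicates 1 and 3 held 6.85 and 6.51, while the remaining 7 libraries of that group ran from 1.13 to 2.79. In M_LPS the set ran from 1.59 to 3.57, with the highest value in M_LPS replicate 7. The difference of M_LPS from M_SAL was -0.90 with all libraries and 0.15 without M_SAL replicates 1 and 3. Of its 73 genes 58 were at an unadjusted p below 0.05, all lower in M_LPS, and 23 were among the 31 DESeq2 calls. Over all tested genes 2.99% were lower at an unadjusted p and 0.302% were called lower by DESeq2. The set took 4.02% and 4.41% of the reads of M_SAL replicates 1 and 3, and at most 0.436% in the other 17 libraries. No p is given for these sets, since they were defined on the same libraries.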

How the data were processed

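The deposited file is 1 table of raw read counts by the authors, with Ensembl gene identifiers as rows and 29 libraries as columns, and columns were tied to samples by title. Per the labels' protocols, RNA was extracted with Qiazol and a Zymo column with DNase treatment, and libraries were made with a NEBNext Ultra RNA kit. CASAVA 1.8.2, HISAT2 and DESeq2 are named, without a role, in the submitters' processing notes. Which counter, genome build, annotation and strand setting were used is not given in the sources used here, so overlapping, antisense and near-identical genes could not be told apart. The reference table of 20956 quail genes carries 0 Ensembl identifiers, so the gene lists and cell type markers drawn up for it were not tested and no sequence was matched.

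Groups came from the treatment labels. Replicates were numbered in accession order and pair no libraries. The labels give each library its own title but do not say more on the independence of the birds. Over the 171 pairs of the 19 libraries, a chi-square test of the counts gave at least 29.2 per degree of freedom, so no library repeated the counts of another. Whether any libraries came from the same bird was not tested. No batch or date was used.

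Genes passing filterByExpr were scaled by TMM and tested with edgeR 4.0.16 (R 4.3.3), quasi-likelihood with robust dispersion, all 3 groups in 1 fit, at an adjusted p of 0.05. The common biological coefficient of variation came to 0.436. Standard errors were taken from each fold change with its F statistic, and 95% intervals from these with the total degrees of freedom. Log2 CPM used a prior count of 2. Values per library were tested by exact permutation and adjusted over 6 measures. Abundance classes are of mean log2 CPM over the 19 libraries. Modules used average linkage on 1 minus Pearson's r, a height of 0.5 and at least 20 genes. Identifiers were named by smallest p among genes with at least 5 CPM in the higher group, 2 for each direction. DESeq2 1.42.0, limma 3.58.1 voom with quality weights, sva 3.50.0 with 1 surrogate variable, other scalings and filters, and left-out libraries served as alternatives. Both DESeq2 fits with fewer libraries, the counts of the F_LPS comparisons with libraries left out, the modules and the sets built on DESeq2 calls were chosen after seeing the data. The gene test and the permutation tests were tested on simulated data. Members, lists and left-out libraries were chosen with earlier results of these data known.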

Additional observations from a re-analysis of the deposited data

Results flagged for a closer look

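Over 28 sets of library values (6 measures, 4 genes and 2 gene sets, by group), 1 held a library far from the rest of its group, and chance alone would give about 1.4. M_LPS replicate 7 lay at a distance of 0.902 from the mean of the other M_LPS libraries (root mean square, log2 CPM), and the next library of its group, replicate 6, at 0.756, a gap that was 0.492 of the range over the group. The same library had the largest total of the 19, 12932244 reads, and the most genes detected at equal depth, 13890. The part of these values in the distance was not tested. The rule takes the gap to the next library of the group, so 2 far libraries can hide each other. M_SAL replicates 1 and 3, at distances of 0.913 and 0.987 within their own group, were not flagged.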

How the results depend on the processing

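The count of 0 called genes was also 0 with RLE or upper-quartile scaling, without the 10 most abundant genes, with no filter, with at least 5 CPM in 9 libraries, with limma voom, with M_LPS and M_SAL alone in the edgeR fit, with 1 surrogate variable, without M_SAL replicates 1 and 3, and without M_LPS replicates 6 and 7 together with M_SAL replicate 6. DESeq2 called 31 genes, and 1 with M_LPS and M_SAL alone. Leaving out each library in turn gave 0 to 1 calls, the 1 call being without M_SAL replicate 4. Genes at an unadjusted p below 0.05 numbered 427 with the main settings, 1187 with no filter, 262 with 1 surrogate variable, 266 without M_SAL replicates 1 and 3, and 300 to 697 with each library left out, the highest without M_SAL replicate 6. With upper-quartile scaling the 130 higher and 297 lower genes became 182 and 231, with limma voom 159 and 157, and with no filter 659 and 528. The count of genes within 2-fold lay between 6561 and 7924 in all alternatives run, and their share of the genes tested, 75.9% with the main settings, was 46.5% with no filter and 89.0% with at least 5 CPM in 9 libraries. The 4 identifiers kept their direction in all 32 alternatives. ENSCJPG00005020895 stayed short of the adjusted threshold in 30 of them, ENSCJPG00005015296 and ENSCJPG00005007537 in 31 each, and ENSCJPG00005016335 in 32. The difference on PC2 was -6.10 to 4.51 over the left-out libraries and turned positive without M_LPS replicates 1, 5, 7 or 9 or M_SAL replicates 1 or 6, always short of the threshold. Both components were computed again from the libraries kept, so their axes differ between these settings. The other 5 library measures kept their direction and side of the threshold, though not their size: genes detected differed by 213 in the main comparison and by 80.6 without M_LPS replicate 7, and library totals by -328364 and by -603669 without M_LPS replicate 7 and -155503 without M_LPS replicate 8. For PC1, with its axis computed again, and for the distance, which depends on group size, the kept direction is no support. No paired analysis was possible because the replicate numbers follow accession order and the labels pair no birds. In the least abundant class of genes, where 34.8% of intervals lay within 2-fold, the parts of depth and of spread between birds were not separated.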
